A study of Rattus norvegicus with 6 samples.

Results

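Chemokines and their receptors were examined as a family of 54 genes among the 18166 genes named on the arrays. Members were taken by symbol, as the CC, CXC, XC and CX3C ligands, the receptors of those classes and the atypical receptors. They comprised 34 ligands and 20 receptors, each measured by 1 probe set. The RNA came from epididymis of Sprague-Dawley rats aged 48 days, with no treatment or genetic change given in the labels. A magnetic method divided the tissue into a basal and a non-basal cell fraction, and 3 Affymetrix RaGene 2.0 ST arrays were run for each. The surface molecule used for the separation is not named in the labels, and the arrays are not assigned to individual rats. Arrays are numbered by the replicate number in their titles. They may be technical replicates in part, so the p-values measure the spread between these samples only.

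Chemokines are small secreted proteins, named for the spacing of their first cysteines, that guide the movement of leukocytes along gradients held on the cell surface and matrix. Their receptors pass through the membrane and signal through inhibitory G proteins, while atypical receptors bind chemokines without that signal and clear them. In an epithelial duct such as the epididymis, some chemokines are made by the epithelium itself and others by stromal cells, vessels and resident leukocytes, and most of the receptors are carried by leukocytes.

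The labels were checked against markers. Tp63, the basal cell transcription factor, read 10.30, 10.12 and 10.15 on the basal and 6.47, 7.28 and 7.51 on the non-basal arrays. All 9 basal epithelial markers listed were higher. Of the 6 principal cell and 4 clear cell markers 0 passed, and their summed unlogged signals overlapped between the fractions. The principal cell sums were 21073 to 34008 (basal) and 31388 to 37465 (non-basal). The clear cell sums were 2265 to 3076 (basal) and 2183 to 3368 (non-basal). A pair of arrays stood apart within their fractions. Basal array 3 carried more fibroblast marker signal than the other basal arrays, and more principal cell signal (34008 against 21073 and 24345, sums of unlogged values). Non-basal array 1 carried less macrophage, T and natural killer, fibroblast and basal epithelial marker signal than the other non-basal arrays. It carried more principal cell (37465 against 31388 and 31722), clear cell (3368 against 2183 and 2422) and pan-epithelial marker signal (9616 against 7117 and 7617). Calls that changed without either array are given with and without it.

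In the basal fraction 8 ligands and 2 receptors were lower and 2 ligands were higher. The lower ligands were Ccl21 and Ccl19, which attract dendritic cells and T cells through Ccr7, Ccl2 and Ccl7, which recruit monocytes through Ccr2, and Ccl5, Cxcl14, Cxcl11 and Xcl1. The lower receptors were Cxcr4 and Cxcr6. The higher ligands were Ccl20, the epithelial ligand of Ccr6, and Cxcl16, a membrane-bound ligand of Cxcr6. Calls are at an adjusted p under 0.05 in limma, a linear model with moderated variances, with Benjamini-Hochberg adjustment over the 18166 genes. Of the members 18.5% were lower, where 7.14% of the genes on the array were lower, and 3.70% were higher, where 7.71% were higher, so 22.2% were called in either direction against 14.9%. The median log2 difference, basal minus non-basal, was -0.29 over the 54 members and 0.00343 over all genes. The basal values lay wholly below the non-basal values for 13 members, where 15.3% of all genes did so, and wholly above them for 5, where 17.6% did. No count of members was tested against other genes.

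The promoters of 6 members are shown because they belong to the genes on which the account below turns: the 2 higher ligands, the neighbouring pair Ccl19 and Ccl21, and the neighbours Cxcl10 and Cxcl11, whose differences had opposite signs. Each is the RefSeq sequence of 250 bases before the start site in the GRCr8 assembly, read in the direction of the gene. Capitals mark matches to the kappaB, interferon response or AP-1 motif.
Ccl20 (chr9:91836909-91837158, plus strand): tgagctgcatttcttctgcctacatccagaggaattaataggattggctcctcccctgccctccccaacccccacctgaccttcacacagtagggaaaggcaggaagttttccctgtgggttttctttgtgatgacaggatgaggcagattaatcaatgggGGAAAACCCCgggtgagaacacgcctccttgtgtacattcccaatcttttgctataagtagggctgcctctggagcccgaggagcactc
Cxcl16 (chr10:55669951-55670200, minus strand): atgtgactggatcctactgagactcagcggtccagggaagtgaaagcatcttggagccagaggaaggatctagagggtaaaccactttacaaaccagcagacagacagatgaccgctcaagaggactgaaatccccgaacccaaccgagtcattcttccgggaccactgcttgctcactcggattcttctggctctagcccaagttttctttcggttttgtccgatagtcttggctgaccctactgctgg
Cxcl10 (chr14:15988816-15989065, plus strand): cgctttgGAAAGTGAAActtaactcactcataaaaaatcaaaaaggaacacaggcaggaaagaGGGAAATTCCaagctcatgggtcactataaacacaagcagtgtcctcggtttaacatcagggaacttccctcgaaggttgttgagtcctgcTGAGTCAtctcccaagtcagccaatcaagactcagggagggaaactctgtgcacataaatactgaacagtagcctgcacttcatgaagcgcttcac
Cxcl11 (chr14:15973478-15973727, plus strand): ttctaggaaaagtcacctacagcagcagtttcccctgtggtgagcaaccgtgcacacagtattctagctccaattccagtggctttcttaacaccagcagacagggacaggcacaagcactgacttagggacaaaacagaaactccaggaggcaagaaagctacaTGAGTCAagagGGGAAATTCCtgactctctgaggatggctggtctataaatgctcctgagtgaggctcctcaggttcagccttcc
Ccl19 (chr5:61761165-61761414, minus strand): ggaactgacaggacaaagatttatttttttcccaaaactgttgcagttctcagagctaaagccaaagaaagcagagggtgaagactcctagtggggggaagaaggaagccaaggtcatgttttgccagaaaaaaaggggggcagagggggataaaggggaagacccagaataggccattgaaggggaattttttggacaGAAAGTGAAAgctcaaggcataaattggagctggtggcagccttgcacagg
Ccl21 (chr5:61777516-61777765, minus strand): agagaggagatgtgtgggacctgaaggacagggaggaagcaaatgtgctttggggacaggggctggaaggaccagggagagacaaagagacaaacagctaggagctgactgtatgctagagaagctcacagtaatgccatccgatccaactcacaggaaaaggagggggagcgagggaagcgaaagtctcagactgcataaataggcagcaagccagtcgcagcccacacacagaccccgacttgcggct

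RefSeq promoters were found for 42 of the 54 members, and 33469 promoters of the same length served as background. The kappaB motif, bound by NF-kappaB factors, was searched on both strands and matched 8 member promoters (19%), where 3.54% of all promoters matched. The matches lay in Ccl20, Ccl9, Ccr3 and the CXC ligands Cxcl1, Cxcl2, Cxcl6, Cxcl10 and Cxcl11. Cxcl10 and Cxcl11 shared the letters GGGAAATTCC, at 187 to 178 bases before the start of Cxcl10 and 74 to 65 bases before that of Cxcl11. The AP-1 motif TGANTCA, which reads the same on both strands, matched 7 member promoters (16.7%) against 6.34% of all, among them Ccl7, Cxcl10, Cxcl11, Cxcl14 and Cxcr6. The interferon response motif, TTTC and TTTC spaced by 2 bases, matched Cxcl10 and Ccl19, 4.76% of the member promoters against 3.41% of all. The E-box motif CANNTG matched 59.5% of member promoters and 65.5% of all. No match of 1 of the capitalised motifs overlapped a match of another in the promoters shown. The members with a kappaB match did not share a direction: the log2 difference was 1.17 for Ccl20 and -1.11 for Cxcl6. These matches describe letters in the window and no binding was measured.

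Both ligands of Ccr7 were lower in the basal fraction. Ccl21, made by lymphatic endothelium and by stromal cells of lymphoid tissue, had log2 RMA values of 6.12, 6.70 and 6.78 on the basal arrays and 8.52, 9.45 and 9.23 on the non-basal arrays. The fractions did not overlap, and the difference was -2.53 ± 0.288 (SE, n = 3 per fraction; limma adjusted p = 0.00438), or 5.79-fold lower. Ccl19, the second ligand of Ccr7, read 6.79, 6.72 and 6.67 against 7.41, 7.70 and 7.83, a difference of -0.92 ± 0.117 (limma adjusted p = 0.00579). The SD was 0.0603 over the basal and 0.212 over the non-basal arrays. Their receptor Ccr7 read 7.25, 7.40 and 7.28 on the basal and 7.23, 7.71 and 7.86 on the non-basal arrays, which overlapped (difference -0.29 ± 0.168, limma adjusted p = 0.299). For Ccl27, a skin-associated ligand whose gene stands beside Ccl19 in the RefSeq order, the difference was 0.12 ± 0.0846 (limma adjusted p = 0.376). The 5 measured markers of endothelium were also lower, with summed signals on a linear scale of 667 to 976 on the basal and 2755 to 2961 on the non-basal arrays. Their part in the result was not tested. In bulk RNA, fewer cells of a type and less RNA per cell cannot be told apart.

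Of the 3 measured ligands of the monocyte receptor Ccr2, Ccl2 and Ccl7 were lower and Ccl12 did not pass. Ccl2, the main monocyte attractant, read 9.78, 10.31 and 10.24 on the basal and 12.10, 12.51 and 12.53 on the non-basal arrays. At -2.27 ± 0.184 it had the smallest limma adjusted p of the family (0.00232), a 4.83-fold lower value, and the lowest non-basal array stood well above the highest basal array. Ccl7, its neighbour in the genome, read 8.30, 8.68 and 8.70 against 9.77, 10.93 and 10.84, a difference of -1.95 ± 0.326 (limma adjusted p = 0.0135). The values of Ccl7 did not overlap, but the call was lost without basal array 1 (limma adjusted p = 0.0676), basal array 2 (0.0648), non-basal array 2 (0.0564) or non-basal array 3 (0.0713). The next genes of the same run on chromosome 10 were Ccl11, Ccl12 and Ccl1. Ccl11, the eosinophil attractant eotaxin, read 6.58, 6.71 and 7.62 against 7.50, 8.54 and 8.20, and basal array 3 overlapped non-basal array 1. Its difference of -1.11 ± 0.371 did not pass (limma adjusted p = 0.108), and passed without basal array 3 (0.043). Ccl12, the remaining Ccr2 ligand, and Ccl1 had differences of -0.40 and 0.40, with limma adjusted p of 0.357 and 0.308. Chemokine genes of a run are close copies, and signal shared between their probe sets was not tested.

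Ccr2 itself read 6.21, 6.63 and 7.45 in the basal and 7.27, 9.39 and 9.07 in the non-basal fraction. Non-basal array 1 lay within the basal range, apart from the other non-basal arrays, and the difference of -1.82 ± 0.616 did not pass (limma adjusted p = 0.111). Without that array it was -2.47 and passed (0.0176). The summed signal of the macrophage and dendritic markers on non-basal array 1 also lay within the basal range, although the basal arrays stood in another order. In that list of 10 genes, 2 passed as lower, Ptprc among them. The summed signals of the list were 2633 to 3603 on the basal arrays and 3231 on non-basal array 1. They were 7262 and 6691 on the other non-basal arrays. Ptprc, the common leukocyte antigen, read 6.60, 6.90 and 6.54 on the basal arrays. It read 7.80 on non-basal array 1, above the basal range, and 9.17 and 8.99 on the other non-basal arrays. The part of these cells in the chemokine values was not tested.

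Ccl5, a T cell and monocyte attractant released by cytotoxic lymphocytes among others, read 8.12, 8.46 and 8.58 in the basal and 9.65, 10.67 and 10.59 in the non-basal fraction. It was 3.78-fold lower (difference -1.92 ± 0.293, limma adjusted p = 0.0101), and no basal array reached a non-basal array. The call was lost without basal array 1 (limma adjusted p = 0.0538), basal array 2 (0.0558) or non-basal array 3 (0.0593). Ccr1, a receptor of Ccl5, read 5.17, 6.05 and 5.57 against 5.47, 5.98 and 6.18, with overlapping fractions and a difference of -0.28 ± 0.275 (limma adjusted p = 0.531). Xcl1, or lymphotactin, which activated T and natural killer cells secrete, read 7.36, 7.11 and 7.11 against 8.002, 8.57 and 8.70. Its difference was -1.23 ± 0.195 (limma adjusted p = 0.0115), with no overlap, and the call was lost without basal array 2 (0.0648), non-basal array 2 (0.0565) or non-basal array 3 (0.0537). Xcr1, the receptor of Xcl1 on cross-presenting dendritic cells, read 6.80, 6.77 and 7.19 against 7.002, 7.38 and 7.72, a difference of -0.45 ± 0.208 that did not pass (limma adjusted p = 0.215). T and natural killer cell markers were lower in 7 of 9 cases, with summed signals of 536 to 967 on the basal and 4125 to 7780 on the non-basal arrays. Their part in the values of Ccl5 and Xcl1 was not tested.

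**Figure D1:**
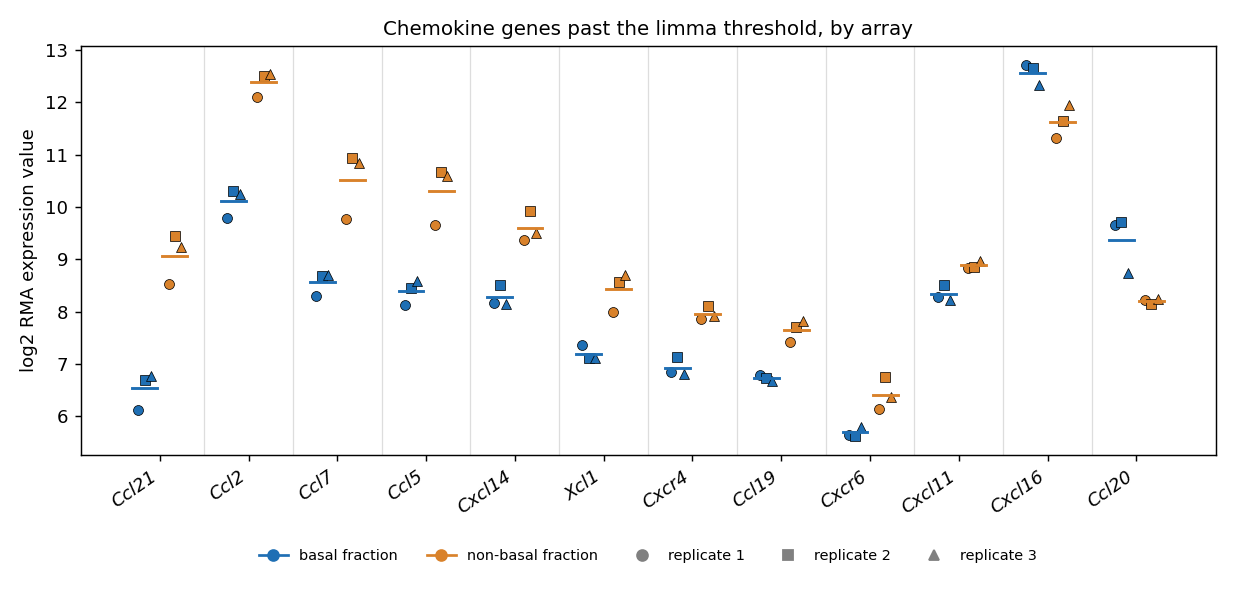
Log2 RMA expression values (vertical axis) of the 12 members past the limma threshold, with basal arrays in blue, non-basal arrays in orange, a symbol for each replicate and a line at the mean of 3 arrays. The fractions did not overlap for any of the 12, and non-basal array 1 was the lowest non-basal array for each of the 10 lower genes.

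Among the CXC ligands, Cxcl14 and Cxcl11 were lower and Cxcl16 was higher. Cxcl14, a ligand made constitutively in many epithelia and by fibroblasts, read 8.16, 8.51 and 8.15 in the basal and 9.36, 9.92 and 9.51 in the non-basal fraction. The difference was -1.32 ± 0.175 (limma adjusted p = 0.00644), 2.50-fold lower, with no overlap. The 7 fibroblast markers were lower too, at summed signals of 1386 to 8002 against 33598 to 59187, and their part in the Cxcl14 value was not tested. Cxcl16 is a ligand anchored in the membrane by a mucin stalk and shed by proteases. It read 12.72, 12.65 and 12.34 in the basal and 11.31, 11.64 and 11.95 in the non-basal fraction, a difference of 0.94 ± 0.186 (limma adjusted p = 0.0241), 1.91-fold higher. The fractions did not overlap, and the call was lost without basal array 1 (limma adjusted p = 0.1), basal array 2 (0.106) or non-basal array 2 (0.087). Its receptor Cxcr6, found on T and natural killer cells, went the other way, with 5.65, 5.62 and 5.80 against 6.13, 6.75 and 6.36. The Cxcr6 difference was -0.72 ± 0.163 (limma adjusted p = 0.0349). Cxcr6 was dim in both fractions, with means of 5.69 and 6.42 under the array medians of 6.63 to 6.70. The Cxcr6 call held without non-basal array 1 (0.0184) and was lost without any other array, at a limma adjusted p of 0.127, 0.136 and 0.0545 without basal arrays 1 to 3, and 0.054 and 0.117 without non-basal arrays 2 and 3.

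The interferon-induced ligands of Cxcr3 form a run of neighbours, and their values diverged. Cxcl11 read 8.27, 8.51 and 8.22 in the basal and 8.84, 8.85 and 8.96 in the non-basal fraction, lower at -0.55 ± 0.0976 (limma adjusted p = 0.0163). That call was lost without basal array 1 (0.0743), non-basal array 2 (0.0614) or non-basal array 3 (0.0767). Cxcl10, next to it, read 12.36, 12.47 and 11.99 against 11.80, 11.79 and 11.77. All basal values of Cxcl10 lay above the non-basal values, but the difference of 0.48 ± 0.131 did not pass (limma adjusted p = 0.0611), and passed without basal array 3 (0.00567). Cxcl9, the remaining ligand of the run, overlapped, with a difference of -0.20 ± 0.328 (limma adjusted p = 0.723) that was 0.14 without basal array 3 (0.71). Cxcr3, the receptor of these ligands on activated T cells, read 6.62, 6.05 and 6.30 against 6.62, 7.30 and 7.25, a difference of -0.74 ± 0.23 (limma adjusted p = 0.0917). The promoters of Cxcl10 and Cxcl11 printed above hold the same kappaB letters and the same AP-1 letters. The difference between these neighbours was not tested.

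Cxcr4 was the only chemokine receptor called with each of the 6 arrays left out in turn. This receptor of Cxcl12, carried by leukocytes, endothelium and progenitor cells, read 6.85, 7.12 and 6.81 in the basal and 7.87, 8.11 and 7.91 in the non-basal fraction. The difference was -1.03 ± 0.115 (limma adjusted p = 0.00422), 2.05-fold lower. Its ligand Cxcl12, a product of stromal cells, read 10.67, 10.75 and 10.48 against 10.43, 11.85 and 11.56. Non-basal array 1 lay below every basal array, and the difference of -0.64 ± 0.362 did not pass (limma adjusted p = 0.291). Fibroblast marker signal summed to 33598 on that array, above the 1386 to 8002 of the basal arrays, and to 59187 and 54927 on the other non-basal arrays. Its part in the Cxcl12 value was not tested. Ackr3, the atypical receptor that scavenges Cxcl12, had a difference of -0.07 ± 0.269 (limma adjusted p = 0.88), with non-basal values of 9.05, 10.10 and 9.82 on both sides of the basal values of 9.72, 9.57 and 9.46. Without non-basal array 1 the Ackr3 difference was -0.38 (limma adjusted p = 0.119). It was 0.15 without non-basal array 2 (0.75) and 0.00824 without non-basal array 3 (0.995).

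Ccl20 had the highest difference of the family. This ligand, which epithelia produce on inflammatory stimulation and which acts on Ccr6, read 9.65, 9.72 and 8.75 in the basal and 8.21, 8.15 and 8.25 in the non-basal fraction. Basal replicate 3 was the lowest of the basal arrays, at 8.75, yet above each non-basal array. The difference was 1.17 ± 0.262 (limma adjusted p = 0.0347), 2.25-fold higher. Without basal array 3 the limma adjusted p was 0.00144, and the call was lost without any other array (0.0783 to 0.127). Basal replicate 3 also had the lowest summed signal of the 9 basal epithelial markers among the basal arrays, 16361 against 20709 and 20789, and the highest of the fibroblast markers, 8002 against 1386 and 2447. The 9 epithelial markers were all higher, with 2052 to 3847 in the non-basal fraction, and their part in the Ccl20 and Cxcl16 values was not tested. The receptor Ccr6 overlapped, at 6.57, 6.95 and 7.29 against 7.62, 7.21 and 7.08 (difference -0.36 ± 0.222, limma adjusted p = 0.325).

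The neutrophil-attracting CXC ligands formed another run, on chromosome 14, and none passed. Cxcl2 read 11.62, 11.69 and 10.86 in the basal and 9.80, 10.85 and 10.75 in the non-basal fraction. Its values just failed to overlap, and its difference was 0.92 ± 0.352 (limma adjusted p = 0.144). Cxcl3 and Cxcl1 had differences of 0.63 ± 0.273 and -0.05 ± 0.247, with limma adjusted p of 0.186 and 0.912, and without basal array 3 that of Cxcl1 was 0.17 (0.614). Cxcl6 read 6.84, 6.99 and 7.13 against 7.30, 8.28 and 8.72, a difference of -1.11 ± 0.351 (limma adjusted p = 0.0944). The receptors of these ligands, Cxcr1 and Cxcr2, had differences of -0.09 and 0.27 (limma adjusted p of 0.548 and 0.311). Of the 5 neutrophil markers 0 passed, with summed signals of 275 to 314 and 274 to 306. The values were chosen for mention after they were seen, save those of Cxcl6.

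**Figure D2:**
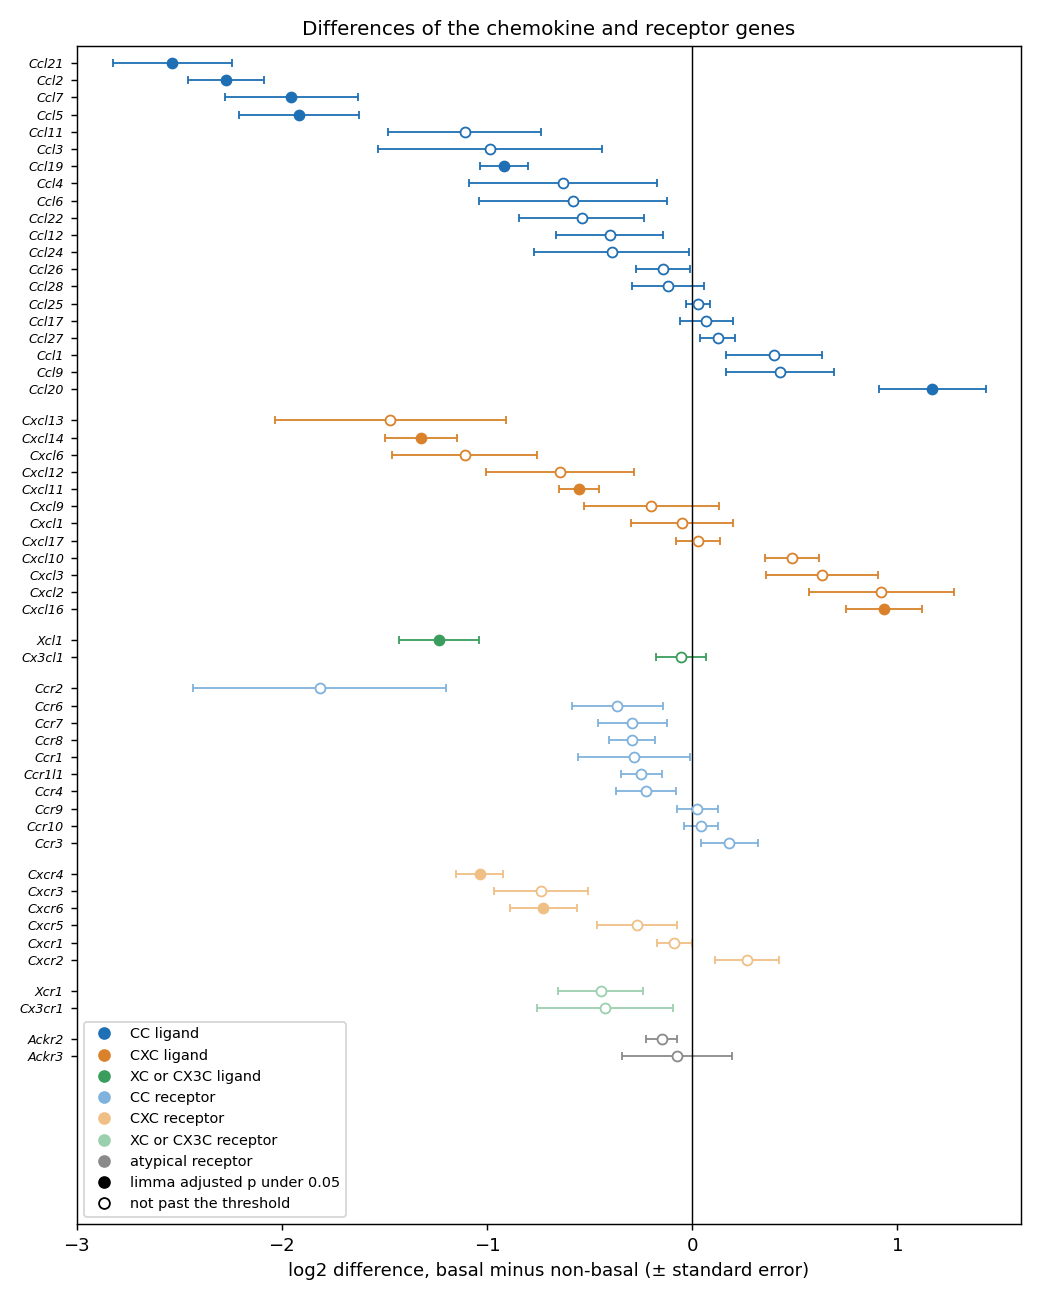
Log2 differences, basal minus non-basal (horizontal axis), with limma standard errors for the 54 members, in groups by structural class and role. Filled points passed the threshold; Ccl21 lay lowest at -2.53 and Ccl20 highest at 1.17, and 39 of the 54 points lay below 0.

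By class, 5 of 20 CC ligands were lower and 1 was higher, 2 of 12 CXC ligands were lower and 1 was higher, and 1 of 2 ligands of the XC and CX3C classes was lower, beside 7.14% of all genes lower and 7.71% higher. The 1 higher gene among 12 CXC ligands is near that background. Of 10 CC receptors 0 passed in limma, although 3 lay at an unadjusted p under 0.05, where 30% of all genes did. With array weights, Ccr2 passed, and without non-basal array 1 Ccr2 and Ccr7 did. Of 6 CXC receptors 2 were lower. The medians were -0.47 for CC ligands, -0.12 for CXC ligands, -0.27 for CC receptors and -0.50 for CXC receptors. Cx3cl1, a membrane-bound ligand of epithelium and endothelium that holds macrophages and other leukocytes, read 11.54, 11.59 and 11.48 against 11.80, 11.36 and 11.61, a difference of -0.05 ± 0.121 (limma adjusted p = 0.795). Its receptor Cx3cr1 read 7.69, 7.76 and 7.16 against 7.26, 8.37 and 8.26 (difference -0.43 ± 0.331, limma adjusted p = 0.438), and without non-basal array 1 its difference was -0.78 (0.069). The fractions overlapped for ligand and receptor.

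The remaining members did not pass. Ccl17, Ccl25, Ccl26, Ccl28, Ccr3, Ccr4, Ccr9, Ccr10, Cxcl17 and Ackr2 had differences between -0.23 and 0.18. Cxcr5, Ccr1l1 and Ccr8 lay at -0.27, -0.25 and -0.29, and Ccl9 at 0.43. Ccl25 read 7.38 on 5 of the 6 arrays, the deposited value being identical there. Such a repeat of a value on 2 or more arrays occurred in 10 of the 54 members and in 35.3% of all genes. In 1 or both fractions, 51 members had a mean of at least 5 and 35 a mean of at least 7.

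The members past the threshold differed in how far they rested on single arrays. Ccl2, Ccl19, Ccl21, Cxcl14 and Cxcr4, 5 of the 12, passed in each of the 6 fits with an array left out, at limma adjusted p of no more than 0.0232, 0.0393, 0.0361, 0.0409 and 0.0309. The number of lower members was 6 without basal array 1 (3.47% of all genes were lower in that fit), 6 without basal array 2 (3.18%), 6 without non-basal array 2 (3.51%) and 5 without non-basal array 3 (2.98%). It was 10 without basal array 3 (8.12%) and 21 without non-basal array 1 (8.85%). The number of higher members was 0 without basal array 1, basal array 2 or non-basal array 2 (3.08%, 2.8% and 3.43% of all genes), 1 without non-basal array 1 (7.51%) or non-basal array 3 (2.9%), and 3 without basal array 3 (11.4%).

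**Figure D3:**
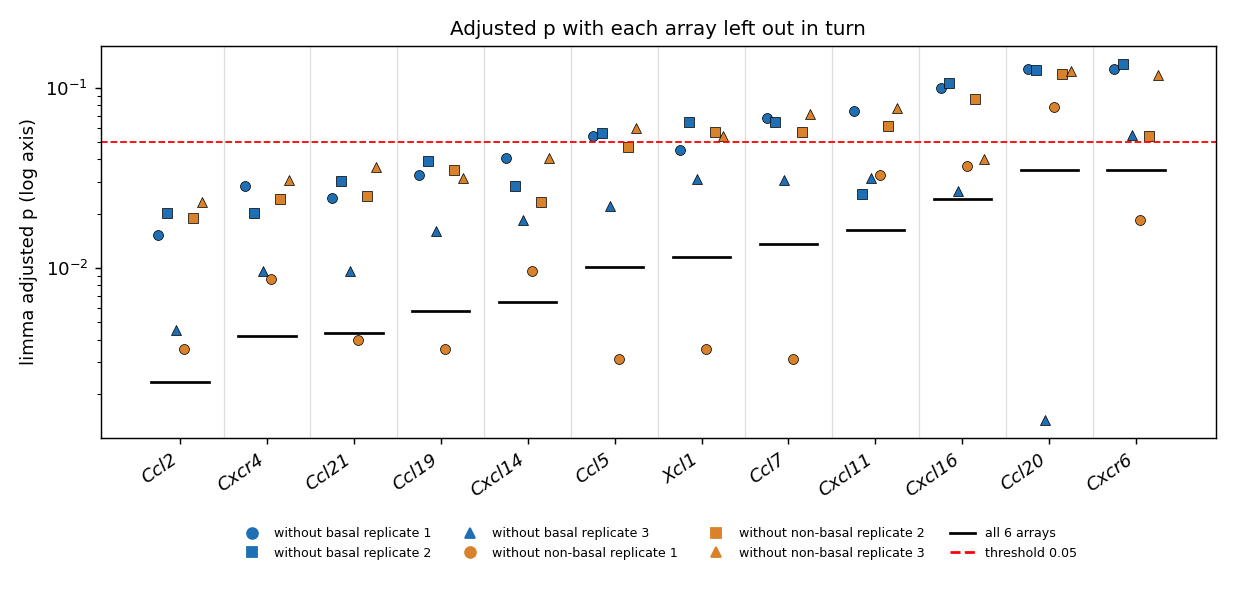
Limma adjusted p (log axis) of the 12 members with each array left out in turn; blue symbols leave out a basal and orange symbols a non-basal array, black lines are the fit with all 6 arrays and the dashed line is the threshold of 0.05. For Ccl2, Cxcr4, Ccl21, Ccl19 and Cxcl14 all symbols lie under the line, whereas Ccl20 lies under it only without basal array 3, at 0.00144.

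Non-basal array 1 held the lowest non-basal value for 39 of the 54 members (72.2%), compared with 32.3% of all genes. Among all genes lower in the basal fraction the share was 69.2%, and among the 10 lower members it was 10 of 10. Without this array the 10 lower members remained lower and 11 more passed: Ccl3, Ccl4, Ccl6, Ccl22, Ccl24, Cxcl6, Cxcl12, Cxcl13, Ccr2, Ccr7 and Cxcr3. Ccl3, a macrophage product that acts on Ccr1, read 9.12 on non-basal array 1 and 11.12 and 10.88 on the other non-basal arrays, against 8.97, 9.69 and 9.51 in the basal fraction. Its difference was -0.98 ± 0.545 with all arrays (limma adjusted p = 0.284) and -1.61 without this array (0.015). Cxcl13, the B cell attractant of lymphoid follicles, read 6.09 on it and 8.06 and 7.91 on the others, against 5.54, 6.40 and 5.71. Its difference was -1.47 ± 0.56 (limma adjusted p = 0.143) and -2.10 without the array (0.011). The 4 measured markers of B and plasma cells summed to 269 to 279 on the basal and 274 to 303 on the non-basal arrays, and 0 of them passed. Cxcl12 had -1.07 without the array (limma adjusted p = 0.00908) and Cxcl6 -1.51 (0.0073). The receptors Cxcr3 and Ccr7 had -0.95 (0.0284) and -0.48 (0.0246). The differences of Ccl4, Ccl6, Ccl22 and Ccl24, ligands that macrophages and dendritic cells can make, were -0.63, -0.58, -0.54 and -0.39 with all arrays and -1.15, -1.11, -0.87 and -0.84 without it. Leaving out the lowest non-basal array of a member raises its non-basal mean by construction. The 11 added calls are therefore no separate support, and they were not part of the comparison of 3 against 3 arrays.

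**Figure D4:**
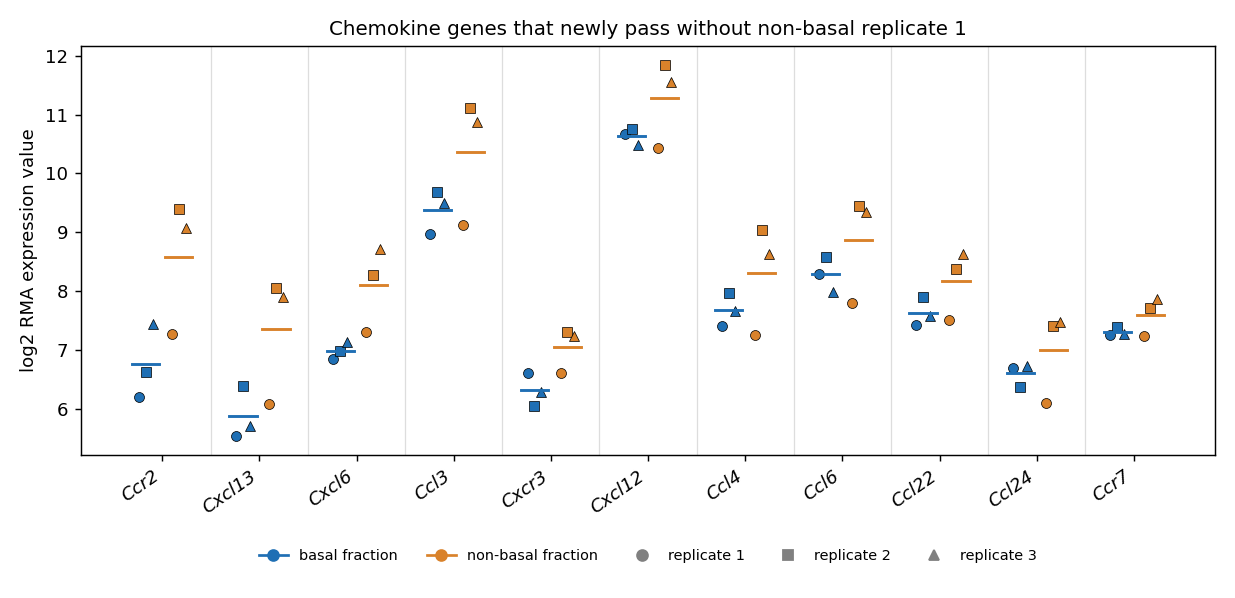
Log2 RMA expression values (vertical axis) of the 11 members that passed once non-basal array 1 was left out, with basal arrays in blue, non-basal arrays in orange, a symbol for each replicate and a line at the mean of 3 arrays. Non-basal array 1 (orange circle) sits among or near the basal values, for Ccl3 at 9.12 beside basal values of 8.97 to 9.69. The genes were selected by leaving out this array, so its place follows in part from that choice.

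Genes that act with the chemokine system were followed in 3 lists. The lists were chosen with earlier results of these data known, and their called shares were not tested against other genes. Of 34 measured signalling partners of the receptors 4 were higher and 9 lower, a called share of 38.2% against 14.9% of all genes, with a median difference of -0.13. Among leukocyte markers, Ptprc was lower at -1.98 ± 0.365 (limma adjusted p = 0.0189). Of the 9 T and natural killer cell markers 7 were lower, with a median of -2.29. Of the 10 macrophage and dendritic markers 2 were lower, and Ptprc was 1 of these. Of the 4 B and plasma, 5 neutrophil and 3 mast cell markers 0 passed. The part of these cells in the list was not tested. Rgs2 and Rgs1, which speed the shut-off of G proteins, were lower at -1.47 ± 0.131 (limma adjusted p = 0.0026) and -1.81 ± 0.297 (0.0127). Arrb1, a beta-arrestin that uncouples receptors, and the kinase gene Prkcd were higher by 1.35 ± 0.174 (limma adjusted p = 0.00599) and 0.78 ± 0.0802 (0.00339). Arrb2, the other beta-arrestin of the list, did not pass (difference -0.20 ± 0.16, limma adjusted p = 0.441). The Rgs1 call was lost without basal array 1 (limma adjusted p = 0.0661), basal array 2 (0.0515), non-basal array 2 (0.0559) or non-basal array 3 (0.068).

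Of 20 measured genes for related attractants and for the handling of chemokines 8 passed, 3 higher and 5 lower. The called share was 40% against 14.9% of all genes, and the median was -0.36. The syndecans Sdc1 and Sdc4, proteoglycans whose heparan sulphate binds chemokines, were higher by 1.81 ± 0.143 (limma adjusted p = 0.0022) and 0.66 ± 0.0828 (0.00562), and Adam17, a sheddase of membrane-bound ligands, by 0.54 ± 0.0741 (0.00747). Rarres2, which encodes the attractant chemerin, was lower at -2.08 ± 0.302 (0.00863), a call lost without basal array 2 (0.052) or non-basal array 3 (0.0557).

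Of 26 measured inducers of inflammatory chemokines 5 passed, 1 higher and 4 lower. That called share of 19.2% is near the 14.9% of all genes, and the median was -0.00862. The cytokine gene Il6 was lower at -2.82 ± 0.253 (limma adjusted p = 0.00266), and Jun, a subunit of AP-1, was higher by 0.46 ± 0.0656 (0.00814). The adaptor gene Myd88 and the interferon gene Ifng were lower at -0.61 ± 0.119 (0.0222) and -0.59 ± 0.121 (0.0271). Both were lost without basal array 2 (limma adjusted p = 0.0889 for Myd88 and 0.077 for Ifng), non-basal array 2 (0.0797 and 0.1) or non-basal array 3 (0.0854 and 0.114). Myd88 was also lost without non-basal array 1 (limma adjusted p = 0.0551) and Ifng also without basal array 1 (0.0846). Ifng was dim, with means of 5.86 (basal) and 6.45 (non-basal) under the array medians of 6.63 to 6.70.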

How the data were processed

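RNA of 3 basal and 3 non-basal fractions was measured on 1-colour arrays. The authors deposited log2 expression values; the submitters' processing notes name RMA and Affymetrix Expression Console. The version, probe set library and build are not given in the sources used here. RMA matches the probe distributions of the arrays, which removes a shift shared by most genes. Values ran from 1.46 to 14.33, with array medians of 6.63 to 6.70, and precision is limited by the number of arrays.

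Of 36685 probe sets, 18511 carried 1 symbol in the platform annotation, 575 several and 17599 were unnamed. The probe set with the highest mean stood for a gene. The RefSeq table held 18394 of the named probe sets, and 0 symbols differed. Groups came from the sample titles. Differences were fitted in limma 3.58.1 (lmFit, eBayes) under R 4.3.3, two-sided, without a replicate block or a filter on dim genes, and tested on simulated data. Marker signals are sums of unlogged values.

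The members and lists were chosen with earlier results of these data known. Members past the threshold, those with a difference of at least 1 in size and the ligand or receptor partners of called members (22 in all) are given in full, with the 4 smallest p of each pathway list; other values were chosen after they were seen. Alternatives were a replicate block, quantile normalization, centring, dim-gene filters, a variance trend, array weights, averaged probe sets, other thresholds and left-out arrays.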

Additional observations from a re-analysis of the deposited data

How the results depend on the processing

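The 10 lower and 2 higher members were the same 12 genes after quantile normalization between arrays, centring of arrays, a filter at a group mean of 5, an intensity trend with robust spread, and averaging of probe sets. A filter at a group mean of 7 left 35 members, 9 lower and 3 higher, with a median difference of -0.55 (12.7% of all genes lower and 14.5% higher). Cxcr6 was not among the 35. Array weights gave 18 lower and 4 higher (12.8% and 15.8% of all genes), a threshold of 0.01 gave 5 and 0 (3.06% and 2.7%), and leaving out non-basal replicate 1 as well as basal replicate 3 gave 21 and 5 (11.7% and 13.8%). With 1 array left out, lower members ranged from 5 to 21, higher members from 0 to 3 and the median from -0.36 to -0.18. The 3 pathway lists held 34, 20 and 26 measured genes. Together 8 of these were higher and 18 lower, beside 7.71% and 7.14% of all genes. Array weights gave 15 and 29 (15.8% and 12.8% of all genes), and leaving out both arrays gave 14 and 28 (13.8% and 11.7%). Single left-out arrays gave 6 to 13 and 2 to 25, beside 2.8% to 11.4% and 2.98% to 8.85% of all genes. The filter at 7 gave 13 higher (14.5% of all genes). The threshold of 0.1 gave 13 higher (11.5%) and the threshold of 0.01 gave 3 lower (3.06%). The cause of these shifts was not tested, except that a threshold changes a count by its own construction.

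With the replicate number as a block, 0 members were higher and 9 lower (5.41% and 5.65% of all genes), and 8 of the 12 genes kept their calls. Ccl20 (limma adjusted p = 0.0583), Cxcl16 (0.0736), Cxcl11 (0.0545) and Cxcr6 (0.0641) were lost and Ccr2 (0.0496) was added. Over all genes, deviations of same-numbered arrays correlated at 0.0312, 0.0383 and 0.0278, and each of the 6 arrays correlated best with its own number, which is a hint from the data and not from the labels. For non-basal array 3 the margin was thin, at 0.0278 against 0.0270 with basal array 1. These correlations are under 0.1 and cannot decide whether same-numbered samples are paired. The labels do not tie them, so the main fit has no block. None of the 22 members given in full by the stated rule changed sign under any alternative tried. Some other members did with an array left out, among them Ackr3, Cxcl1, Cxcl9 and Cx3cl1 (0.0514 without non-basal array 1). Signal over background was not given in the values, so dim members such as Ccr3, at 3.42 and 3.24, have no stated detection.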
